A study of Mus musculus with 12 samples.

Results

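The genes described here are 10 genes of club cells and other secretory cells of the airway lining: Scgb1a1, Scgb3a1, Scgb3a2, Cyp2f2, Bpifa1, Bpifb1, Muc5b, Reg3g, Aldh1a1 and Ltf. They were chosen by name, and all 10 were found among the 30399 genes of the deposited table. Expression was measured by RNA sequencing of poly-A RNA in 5 normal mouse lungs and 7 mouse tumors from a study that used nonviral CRISPR/Cas9 mutagenesis to make lung cancer models. In CRISPR/Cas9 mutagenesis an RNA-guided enzyme cuts a gene, and faulty repair of the cut can disable it. Beyond the tissue, the labels do not give the strain, age, genes targeted or time for any sample, or whether the samples came from separate animals, so p-values measure the spread between these samples only. The titles of tumors 1 and 7 hold a word for trachea and those of tumors 3, 4, 5 and 6 a word for lung, while the title of tumor 2 has neither. The titles carry the number 153 for tumor 1, 156 for tumor 2, 159 for tumors 3 and 4, and 201 for tumors 5, 6 and 7.

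Club cells are secretory cells of the conducting airways that line the bronchioles of the mouse, detoxify inhaled chemicals and can act as progenitors of other airway cells. Their most abundant product is the small secreted protein uteroglobin, encoded by Scgb1a1. Secretory cells of the trachea and large bronchi make a partly different set of products, among them the mucin of Muc5b and the lipid-binding defence proteins of Bpifa1 and Bpifb1. Markers of the gas-exchange epithelium met the label of normal lung: the genes listed for alveolar type 2 cells summed to 198694 to 270468 normalized counts there, and to 744 to 3348 across the tumors. A normalized count is a read count divided by a size factor that puts all samples on one scale. Totals were 11126432 to 17032234 reads per normal lung and 13093843 to 24217633 per tumor, and 3 reads, taken here as the lowest usable count, were worth at most 4.85 normalized counts for any normal lung and 3.57 for any tumor. Tumor 7 stood apart in heart muscle genes, with a summed level of Myh6, Tnnt2, Tnni3, Nppa and Myl7 of 33146 normalized counts against at most 3528 in any other sample.

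Start-site sequences from RefSeq (build GRCm38.p6) were found for 7 of the 10 genes. They run from 250 bases before to 50 bases after the start of transcription. Those of Scgb3a1, Bpifa1 and Aldh1a1 are shown because they hold short motifs of transcription factors of lung epithelium whose levels are given further on. Capitals mark matches on either strand to CTCAAG (NKX2-1), TGTTTAC or TGTTTGC (FOXA factors) and TTGCNNAA (C/EBP factors). No 2 of these matches overlap.
Scgb3a1, chr11:49663345-49663644, plus strand: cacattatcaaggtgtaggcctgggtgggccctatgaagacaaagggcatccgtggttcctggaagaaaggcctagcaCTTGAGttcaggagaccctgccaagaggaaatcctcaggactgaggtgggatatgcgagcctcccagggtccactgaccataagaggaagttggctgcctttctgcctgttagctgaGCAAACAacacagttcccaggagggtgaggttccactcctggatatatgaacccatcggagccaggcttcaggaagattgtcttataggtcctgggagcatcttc
Bpifa1, chr2:154142630-154142929, plus strand: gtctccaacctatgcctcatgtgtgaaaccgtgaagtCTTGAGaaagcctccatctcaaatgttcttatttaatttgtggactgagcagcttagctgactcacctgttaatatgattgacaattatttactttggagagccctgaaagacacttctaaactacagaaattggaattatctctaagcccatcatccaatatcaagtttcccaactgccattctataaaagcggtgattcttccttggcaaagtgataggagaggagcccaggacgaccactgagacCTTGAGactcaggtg
Aldh1a1, chr19:20492333-20492632, plus strand: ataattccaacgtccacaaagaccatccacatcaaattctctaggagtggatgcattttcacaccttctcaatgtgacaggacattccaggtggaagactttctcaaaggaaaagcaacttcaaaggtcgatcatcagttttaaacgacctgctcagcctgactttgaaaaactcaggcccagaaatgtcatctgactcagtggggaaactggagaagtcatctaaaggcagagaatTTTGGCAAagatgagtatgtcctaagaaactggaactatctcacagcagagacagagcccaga
The Scgb3a1 sequence holds 1 match to the NKX2-1 letters and 1 to the FOXA letters, that of Bpifa1 2 matches to the NKX2-1 letters, and that of Aldh1a1 1 match to the C/EBP letters. A second annotated start of Aldh1a1, not shown, holds 0 matches, as does the sequence of Cyp2f2. Those of Reg3g, Ltf and 1 of 2 starts of Bpifb1 hold 1 match each, to the NKX2-1, C/EBP and FOXA letters. Among 32851 start-site sequences of the same length, 15.9% held the NKX2-1 letters, 8.48% either FOXA motif and 10.8% the C/EBP motif. A match describes letters and shows no binding.

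Tumors were first set against normal lung to see how much of the airway secretory programme they held. Of the 10 genes, 7 were lower in tumor by limma (adjusted p under 0.05 over 23674 genes tested) and 0 were higher; over all tested genes 30.1% were lower and 31.4% higher. The count of 7 was 4 when normal lung 3 or normal lung 5 was left out, and 4 with the mean Y-linked level in the fit. That level, on a log2 scale, was 9.18 to 9.43 in the normal lungs except normal lung 3 (0). It was 0 to 1.48 in the tumors except tumor 1 (9.14). The Y-linked level thus nearly followed tissue, and this fit separates them poorly. On recovered reads of the 11 samples other than tumor 3, edgeR called 5 of the 10 genes lower (26.3% of all genes it tested) and DESeq2 called 6 (26.1%). The calls of Scgb3a1, Bpifb1 and Muc5b were the ones lost, while Scgb1a1, Scgb3a2, Cyp2f2 and Aldh1a1 were called lower under every alternative tried. In these 4 genes every tumor was below every normal lung, as it was in 18.4% of all tested genes, and in 0 of the 10 was every tumor above every normal lung (20.1% of all). The median log2 fold change over the 10 genes was -3.12 and that over all tested genes 0.04, on the log2(normalized count + 1) scale used for all limma fold changes here. Those of edgeR and DESeq2 come from models of the recovered reads, and ratios written as -fold are of normalized counts. In whole tissue, fewer secretory cells and less RNA per cell cannot be told apart.

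**Figure D1:**
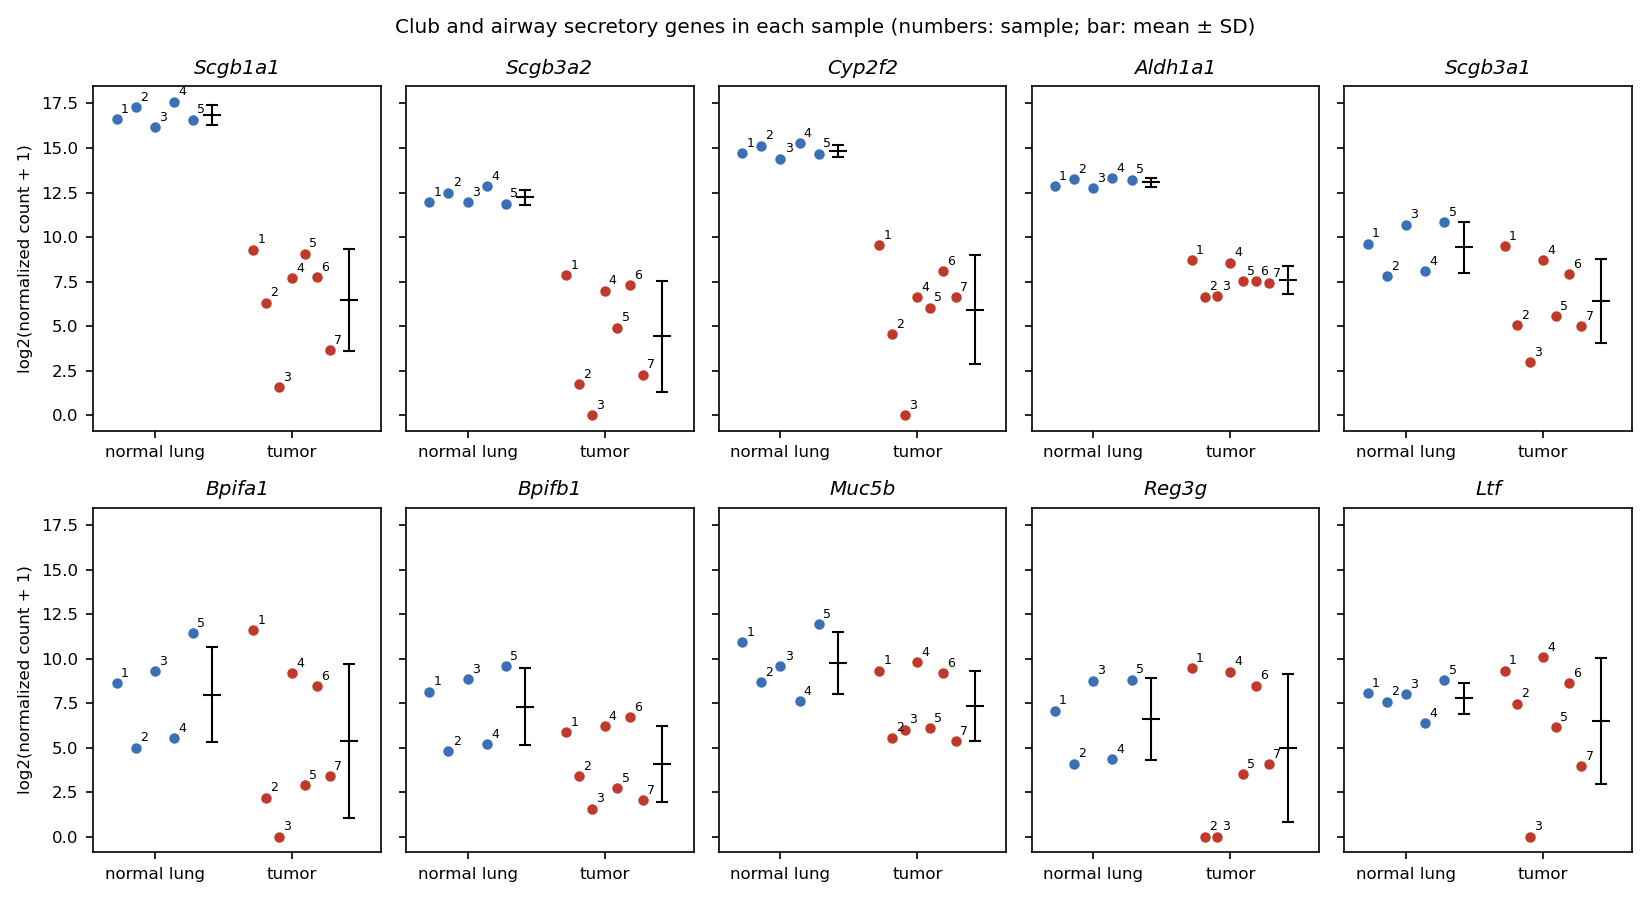
Level of each of the 10 genes, as log2(normalized count + 1), in the 5 normal lungs (blue) and 7 tumors (red), with the number of each sample beside its point and the mean ± SD of each group as a black bar. In Scgb1a1, Scgb3a2, Cyp2f2 and Aldh1a1 the groups are apart, and in the other 6 genes they overlap.

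Scgb1a1 (ENSMUSG00000024653), the defining club cell gene, had 99421, 160046, 73510.1, 198876 and 99208 normalized counts across normal lungs 1 to 5. It had 627, 78.6, 1.98, 206, 539, 213 and 11.5 across tumors 1 to 7. Every tumor lay far below every normal lung, and the mean of normal lung was 527-fold that of tumors. Scgb1a1 fell by 10.37 on the log2 scale (SE 1.14, limma adjusted p = 4.31e-06), the largest change of the 10 genes. In normal lung Scgb1a1 alone took 0.409% to 1.05% of all reads. In tumors 3 and 7, with 2 and 18 reads, it was close to undetected at this depth.

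Scgb3a2 (ENSMUSG00000038791) encodes another small secretoglobin of bronchiolar secretory cells. Its normalized counts were 4009.5, 5769, 3988, 7527 and 3766 in normal lungs 1 to 5, and 231, 2.38, 0, 127, 29.1, 158 and 3.84 across tumors 1 to 7. The groups were apart, with tumors 2, 3 and 7 at 6 reads or fewer. Scgb3a2 fell by 7.79 on the log2 scale (SE 1.23, limma adjusted p = 1.06e-04).

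Cyp2f2 (ENSMUSG00000052974), the cytochrome P450 by which mouse club cells convert naphthalene to a toxic product, had 26923, 36125, 21655, 39136 and 26346 normalized counts across normal lungs 1 to 5. The 7 tumors had 751, 22.6, 0, 98.8, 64.7, 274 and 97.3. Tumor 3 had no read of this gene and was at least 10099-fold below the mean of normal lung, taken against a floor of 3 reads. Tumor 1, the highest tumor, was still at 2.50% of that mean. Cyp2f2 fell by 8.91 on the log2 scale (SE 1.20, limma adjusted p = 2.66e-05).

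Aldh1a1 (ENSMUSG00000053279) encodes a cytosolic enzyme that oxidises retinaldehyde to retinoic acid and is not limited to club cells. Normal lungs 1 to 5 had 7537, 9639, 6803, 10303 and 9574 normalized counts, and tumors 1 to 7 had 419.7, 100.1, 102, 377, 186, 182 and 170.4. It varied least among the tumors of the 10 genes, with an SD of 0.81 on the log2 scale against 1.98 to 4.31 in the other 9. No tumor was near 0. Aldh1a1 fell by 5.49 on the log2 scale (SE 0.34, limma adjusted p = 1.97e-08). Its count is uncertain in part, since Aldh1a7 is a close copy with which reads can be shared, and the annotated gene C730002L08Rik overlaps it on the opposite strand.

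Aldh1a7 (ENSMUSG00000024747) itself had a mean of 884.6 ± 163 normalized counts (SD, n = 5) among normal lungs and of 170.4 ± 254 (SD, n = 7) among tumors. Its value in tumor 1, 741, lay inside the normal lung range of 720.3 to 1113, and the other 6 tumors lay below it at 14.3 to 111. In tumor 1 the normalized count of Aldh1a1 was at 4.79% of its normal lung mean.

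**Figure D2:**
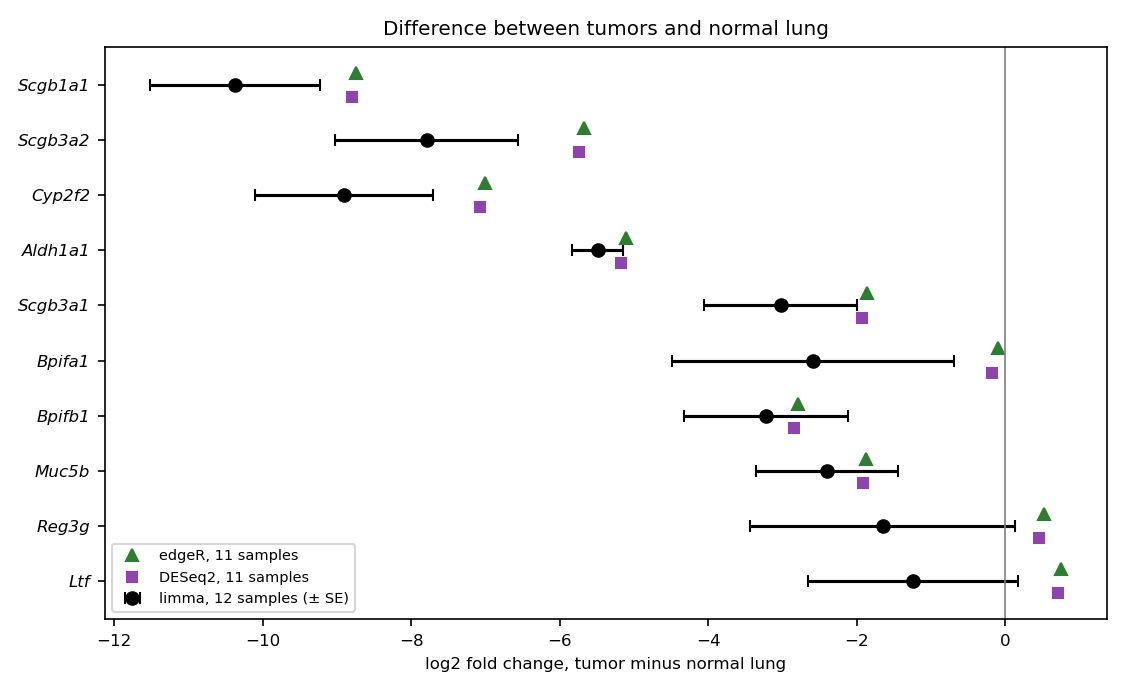
Log2 fold change of each gene, tumor minus normal lung, from limma on 12 samples (black, ± SE) and from edgeR (green triangles) and DESeq2 (purple squares) on the recovered reads of 11 samples. The top 4 genes are far below 0 by all 3 tools. Reg3g and Ltf lie below 0 by limma and above 0 by the count tools, which left out tumor 3. Limma without tumor 3, not drawn, also gave values below 0 (-0.82 and -0.16).

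The remaining 6 genes, products of large-airway secretory cells and glands, gave smaller and less stable differences. All 6 overlapped between the groups. Scgb3a1 (ENSMUSG00000064057), a secretoglobin of the upper airway, had 791, 225, 1668, 271 and 1852 normalized counts across normal lungs 1 to 5 and 717, 32.2, 6.94, 418, 46.9, 245 and 30.7 across tumors 1 to 7. Tumors 1, 4 and 6 fell inside the normal lung range and the other 4 tumors below it. The log2 fold change of Scgb3a1 was -3.03 (SE 1.03, limma adjusted p = 0.0210), and it did not pass in edgeR (-1.86, adjusted p = 0.0861) or without normal lung 3 (-2.70) or normal lung 5 (-2.67). With the Y-linked level in the fit it did not pass either (-2.25, limma adjusted p = 0.188).

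Bpifa1 (ENSMUSG00000027483) encodes a surface-active, lipid-binding protein abundant in the secretions of the nose, trachea and bronchi. It had 397, 31.2, 628, 45.1 and 2759 normalized counts across normal lungs 1 to 5, an 88.5-fold spread within the control group. Tumors 1 to 7 had 3082, 3.57, 0, 580.2, 6.47, 347 and 9.61. Tumor 1 exceeded every normal lung, while tumors 2, 3, 5 and 7 were below every one. The log2 fold change of Bpifa1 was -2.59 (SE 1.89, limma adjusted p = 0.249) and did not pass the threshold.

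Bpifb1 (ENSMUSG00000027485), a longer protein of the same family found with airway mucus, had 281, 26.9, 459, 35.3 and 758 normalized counts across normal lungs 1 to 5. Its values across tumors 1 to 7 were 58.2, 9.53, 1.98, 72.7, 5.66, 104 and 3.20. No tumor reached normal lungs 1, 3 or 5, and tumors 1, 4 and 6 exceeded normal lungs 2 and 4. The log2 fold change of Bpifb1 was -3.22 (SE 1.10, limma adjusted p = 0.0213). It did not pass without normal lung 1 (-3.01), normal lung 3 (-2.84) or normal lung 5 (-2.66), or with the Y-linked level in the fit (-3.04, limma adjusted p = 0.1095).

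Muc5b (ENSMUSG00000066108), the gel-forming mucin of healthy mouse airways, had 1927, 407, 757, 193 and 3921 normalized counts across normal lungs 1 to 5. Tumors 1 to 7 had 639, 46.5, 63.5, 883, 67.1, 574 and 40.3. The groups overlapped in the range from 193 to 883, where tumors 1, 4 and 6 lay with normal lungs 2, 3 and 4. The log2 fold change of Muc5b was -2.41 (SE 0.96, limma adjusted p = 0.0418). This call was lost in edgeR (-1.87, adjusted p = 0.105), in DESeq2 (-1.92, adjusted p = 0.0503), with tumors of the same title number treated as correlated (limma adjusted p = 0.0786, estimated correlation 0.304), with equal column totals (limma adjusted p = 0.0613), with the Y-linked level in the fit, and in 7 of the 12 fits that left out a sample, namely normal lungs 1, 3 and 5 and tumors 2, 3, 5 and 7.

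Reg3g (ENSMUSG00000030017), a secreted lectin that binds bacterial cell walls, had 134, 16.1, 433, 19.7 and 451 normalized counts across normal lungs 1 to 5. It had 705, 0, 0, 615, 10.5, 356 and 16.01 across tumors 1 to 7. Tumors 1 and 4 were above every normal lung and tumors 2 and 3 had no read. The log2 fold change of Reg3g was -1.65 (SE 1.78, limma adjusted p = 0.438). The edgeR fit, which left out tumor 3, gave 0.52 (adjusted p = 0.747), and limma without tumor 3 gave -0.82.

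Ltf (ENSMUSG00000032496) encodes lactoferrin, an iron-binding protein that is made both by airway glands and by neutrophils. Normal lungs 1 to 5 had 267, 191, 258, 81.8 and 437 normalized counts, and tumors 1 to 7 had 643, 176, 0, 1076, 70.4, 397 and 14.7. Tumors 1 and 4 were again above every normal lung. The log2 fold change of Ltf was -1.24 (SE 1.41, limma adjusted p = 0.463). The edgeR fit, which left out tumor 3, gave 0.75 (adjusted p = 0.439), and limma without tumor 3 gave -0.16.

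Per kilobase of annotated exon, Scgb1a1 had the highest mean level in normal lung, at 265152 ± 108398 normalized counts (SD, n = 5), followed by Cyp2f2 at 14833 ± 3607, Scgb3a2 at 5695 ± 1842, Aldh1a1 at 1777 ± 306 and Scgb3a1 at 1608 ± 1280. Bpifa1 came next at 499.8 ± 737, and then Reg3g at 99.7 ± 102, Muc5b at 96.3 ± 103, Bpifb1 at 86.2 ± 85.1 and Ltf at 71.6 ± 37.5. The spreads between lungs overlapped for Aldh1a1 and Scgb3a1, for Scgb3a1 and Bpifa1, and for all neighbours among the last 5 genes. All genes were measured in the same lungs, and differences between genes within a lung were not tested. In tumors the median level per kilobase was again highest for Scgb1a1, at 432, with Scgb3a1 at 78.5, Ltf at 51.1, Cyp2f2 at 48.1, Aldh1a1 at 36.9 and Scgb3a2 at 33.1 next. The other 4 genes had tumor medians of 2.63 to 7.57 per kilobase. The share of reads held by the 10 genes was 0.613% to 1.35% per normal lung and 0.00105% to 0.0519% per tumor.

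**Figure D3:**
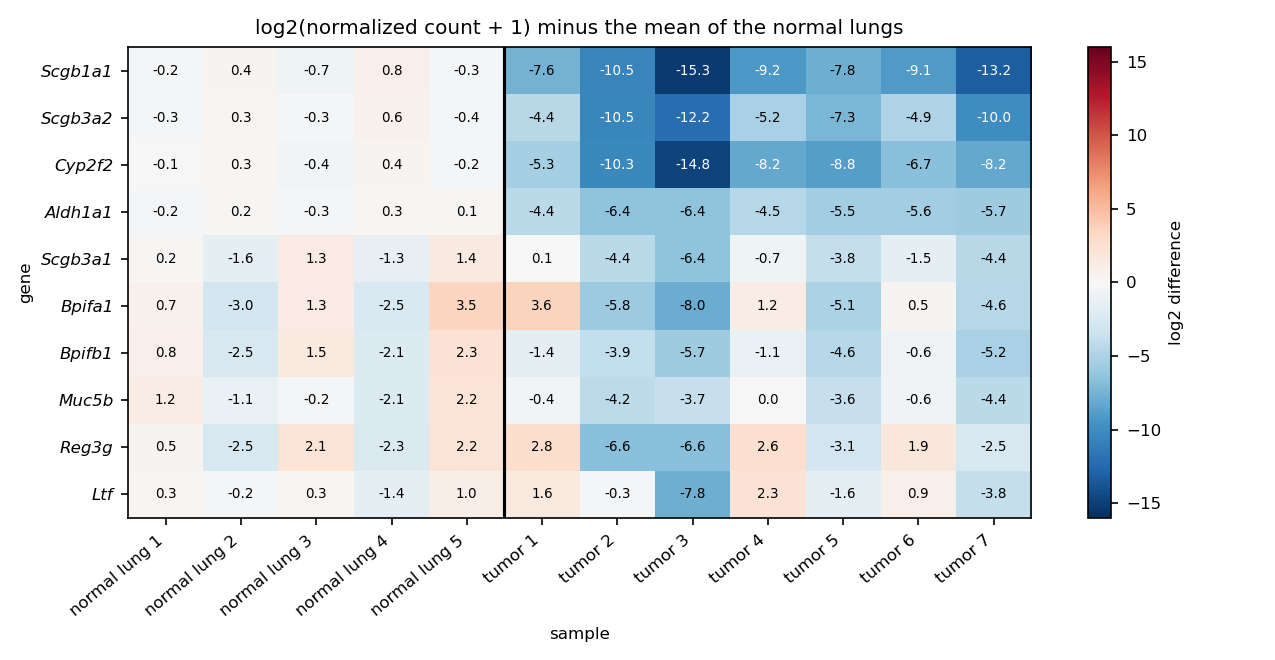
Difference of log2(normalized count + 1) from the mean of the 5 normal lungs, for each gene (rows) in each sample (columns), blue for lower and red for higher. The upper 4 rows are lower in all 7 tumors, and in the lower 6 rows tumors 1, 4 and 6 lie between -1.48 (Scgb3a1 in tumor 6) and 3.61 (Bpifa1 in tumor 1), while tumor 3 reaches -7.98 in Bpifa1.

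Tumors differed among themselves in a repeated order, which was picked out after the values were seen. In 8 of the 10 genes, all but Scgb1a1 and Aldh1a1, tumors 1, 4 and 6 were the 3 highest tumors; this order was found in 1.84% of all tested genes. Tumor 1 was the highest tumor in 7 genes and tumor 3 the lowest or joint lowest in 8. In tumor 3, 7 genes had 3 reads or fewer, and in tumor 2 this held for 3 genes. All 10 genes were below the lowest normal lung in tumors 3, 5 and 7, 9 in tumor 2, and 4 in each of tumors 1, 4 and 6. Reg3g in tumor 7 was only just below, at 16.01 normalized counts against 16.13 in normal lung 2. Shares over all tested genes were not counted for single tumors, so these counts have no background beside them.

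Balance between bronchiolar and large-airway products also differed between samples. The ratio of Scgb1a1 to Scgb3a1 normalized counts, compared for the same gene pair across samples, was 126, 712, 44.1, 734 and 53.6 in normal lungs 1 to 5. In tumors 1 to 7 it was 0.875, 2.44, 0.286, 0.492, 11.5, 0.871 and 0.375. Every tumor was below every normal lung in this ratio, which rests on 2 and 7 reads in tumor 3. The fall of Scgb1a1 in tumors 1, 4 and 6 was thus larger than that of Scgb3a1 in the same libraries.

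Normal lungs fell into opposite orders for the 2 kinds of genes, again picked out after the values were seen. Normal lungs 2 and 4 were the 2 highest for Scgb1a1, Scgb3a2, Cyp2f2 and Aldh1a1, an order found in 13.4% of all tested genes. Normal lungs 1, 3 and 5 were the 3 highest for Scgb3a1, Bpifa1, Bpifb1, Muc5b, Reg3g and Ltf, an order found in 16.8% of all tested genes. The first 4 genes varied 1.51-fold to 2.71-fold between the lowest and highest normal lung, and the other 6 varied 5.34-fold to 88.5-fold.

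Markers of other airway cells were set beside these orders. Among 9 multiciliated cell genes 8 were lower in tumor, against 30.1% of all tested genes. Their summed level was 6728 to 9739.8 normalized counts in normal lung. In tumors 1, 4 and 6 it was 1403, 975 and 925, and in tumors 2, 3, 5 and 7 it was 335, 527, 561 and 535. Ccdc153, a gene of the ciliary apparatus singled out after its values were seen, had 46.8, 20.7 and 20.2 normalized counts in tumors 1, 4 and 6 and 0, 0, 9.71 and 1.92 in tumors 2, 3, 5 and 7. In 5 of the 9 genes tumors 1, 4 and 6 were the 3 highest tumors. The other 4 had another order, with Dnah9 highest in tumor 5 (110.0), Cfap126 in tumor 7 (20.5), Hydin in tumor 6 (66.0) and Rsph1 in tumor 4 (315) but higher in tumor 3 (175) than in tumors 1 and 6. The part of multiciliated cells in the result was not tested.

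Basal cell genes had a summed level of 132, 106, 224, 67.7 and 284 normalized counts across normal lungs 1 to 5, highest in the lungs that were highest for Bpifa1. In tumors 1 to 7 this sum was 219, 53.6, 134, 492, 112, 226 and 446. Of the 7 genes 1 was lower and 1 higher in tumor, against 30.1% and 31.4% of all tested genes. Krt15, a basal cell keratin singled out after its values were seen, had 60.8, 79.0 and 38.4 normalized counts in tumors 1, 4 and 6 and at most 1.92 in the other 4. This order held in 3 of the 7 basal genes, Krt5, Krt15 and Aqp3, while Ngfr and Trp63 were highest in tumor 7, at 391.95 and 33.9. Krt5, another basal cell keratin, was at 0 in normal lung 4 and tumor 3. The part of basal cells in the result was not tested.

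Heart muscle genes, which in the mouse are also expressed in the walls of pulmonary veins, had summed levels of 1188, 787, 2032, 182 and 3528 normalized counts across normal lungs 1 to 5. Their order among the normal lungs was that of Bpifa1 but for lungs 2 and 4. Among tumors the sum was 129 in tumor 1, 439.6 in tumor 2, 197 in tumor 3, 1559.9 in tumor 4, 184 in tumor 5 and 2121 in tumor 6, so tumor 1, the highest for Bpifa1, was the lowest here.

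Neutrophil genes were set beside Ltf, which neutrophils also make. Their summed level over 12 genes was 3683 to 9563 normalized counts in normal lung, and 225, 9674, 56.5, 827, 291, 241 and 619 across tumors 1 to 7. Tumor 2, with the highest neutrophil sum and 3270 normalized counts of the granule gene Ngp, had 176 of Ltf. Tumors 1, 4 and 6, with 643, 1076 and 397 of Ltf, had 0.633, 2.69 and 3.37 of Ngp and 5.06, 10.8 and 8.76 of S100a9, a pair singled out after their values were seen. Of the 12 genes, 10 were highest in tumor 2 among the tumors, the exceptions being Csf3r, highest in tumor 7 at 291, and Lcn2, highest in tumor 4 at 684. The sum of tumor 4, 827, was the next highest after that of tumor 2, but 684 of it came from Lcn2, a gene of mucosa as well as of neutrophils. The part of neutrophils in the levels of Ltf was not tested. By limma 8 of the 12 neutrophil genes were lower in tumor, against 4 in edgeR and 5 in DESeq2. Over all genes tested these tools called 30.1%, 26.3% and 26.1% lower.

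**Figure D4:**
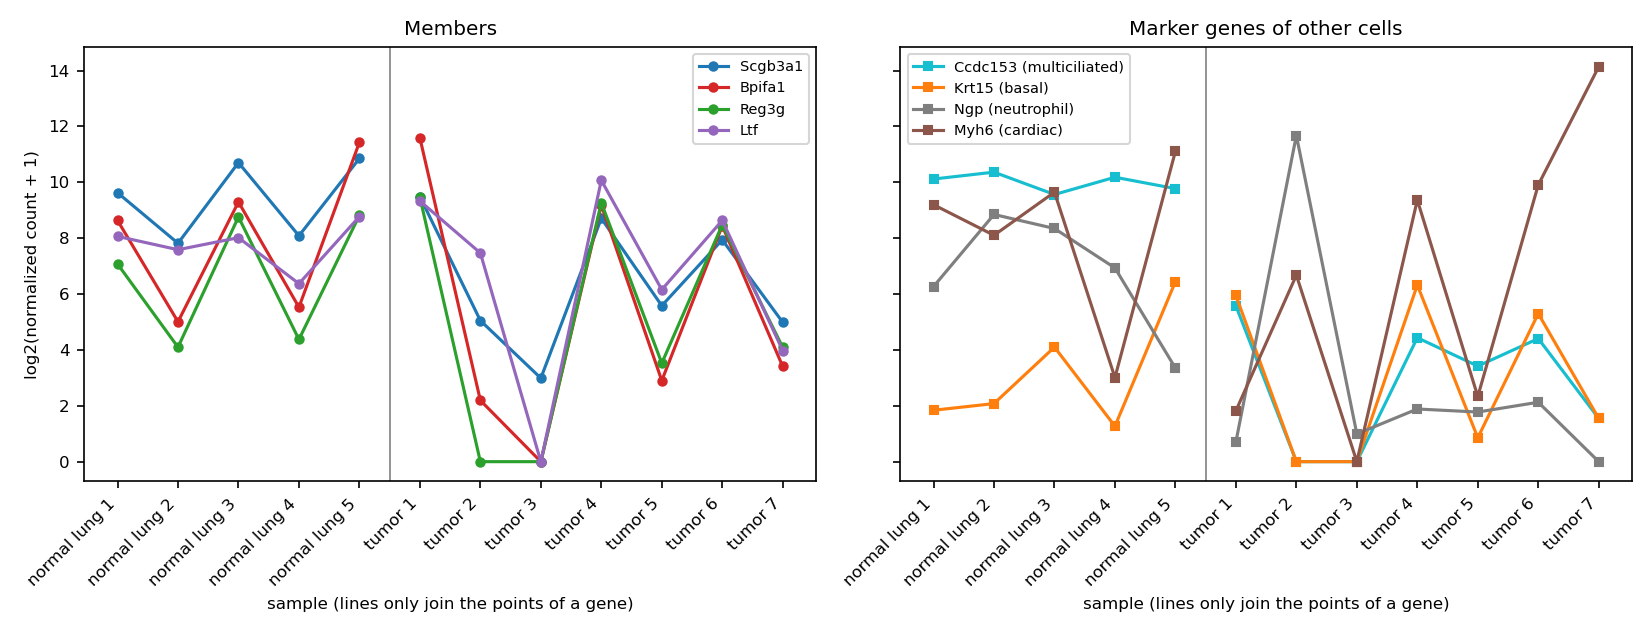
Left, log2(normalized count + 1) of Scgb3a1, Bpifa1, Reg3g and Ltf by sample; right, the same for 1 marker gene each of multiciliated cells (Ccdc153), basal cells (Krt15), neutrophils (Ngp) and heart muscle (Myh6). In tumors, peaks at tumors 1, 4 and 6 appear for the 4 genes on the left and for Krt15 and Ccdc153, which were picked after their values were seen. Ngp peaks in tumor 2 and Myh6 in tumor 7. Tumors 1, 4 and 6 were the 3 highest in only 3 of the 7 basal genes and 5 of the 9 multiciliated genes.

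Tumors whose titles name the trachea were compared with those whose titles name the lung, since secretory cells line both. Of the 10 genes 0 were called by limma (2 against 4 tumors), and 0 by edgeR or DESeq2, which left out tumor 3. Over all 23282 genes tested 0% were called lower and 0% higher by limma. An unadjusted limma p under 0.05 was found for 0 of the 10 genes and for 2086 of the 23282. With 2 trachea-titled tumors this comparison shows little. These tumors differed from each other: tumor 1 exceeded tumor 7 in all 10 genes, from 2.46-fold in Aldh1a1 to 321-fold in Bpifa1. Tumor 7 was the lowest of the 7 tumors in 1 gene, whereas lung-titled tumor 3 was lowest or joint lowest in 8. In 9 genes tumors 1 and 7 lay on either side of the median of the lung-titled tumors. The exception was Cyp2f2, with 751 and 97.3 normalized counts in tumors 1 and 7 and 0, 98.8, 64.7 and 274 in tumors 3 to 6.

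Tumors with the same title number were alike in some pairs and far apart in others. Tumor 4 exceeded tumor 3, both numbered 159, in all 10 genes. Against a floor of 3 reads in tumor 3, tumor 4 was at least 362-fold higher in Ltf, at least 207-fold in Reg3g and at least 195-fold in Bpifa1, and it was 3.69-fold higher in Aldh1a1. Among the tumors numbered 201, tumor 6 exceeded tumor 7 in all 10 genes and tumor 5 in 8, the exceptions being Scgb1a1 and Aldh1a1. The median absolute log2 difference over the 10 genes was 0.63 to 6.38 in the 4 pairs of tumors with the same number and 0.75 to 7.79 in the 17 other pairs. Tumors 5 and 7, both numbered 201, had the smallest difference of all 21 pairs (0.63), and tumors 3 and 4 the largest among those of the same number (6.38).

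Other club cell genes were lower too, as were genes of other normal lung cells. Of 20 listed, 18 were in the table and all 18 were lower in tumor, with a median log2 fold change of -5.08. In 15 of them every tumor was below every normal lung. Over all tested genes 30.1% were lower, and in 18.4% every tumor was below every normal lung. Alveolar type 1 cell genes were lower in 7 of 7 (median -5.24) and endothelial genes in 6 of 6 (median -4.91), beside the median of -5.08 for the club cell genes. Cbr2, a carbonyl reductase abundant in mouse club cells, went from 44495 ± 11162 (SD, n = 5) to 403 ± 414 normalized counts (SD, n = 7), a log2 fold change of -8.22 (SE 1.24, limma adjusted p = 7.12e-05). Hp, which encodes the haemoglobin-binding protein haptoglobin, had 24.8 to 10538.5 normalized counts in tumors, its highest value being in tumor 7. Krt7, a keratin of simple epithelia, had a smaller log2 fold change (-1.95, adjusted p = 0.0284). Its call was lost in edgeR (-0.82), in DESeq2 (-0.89), with the Y-linked covariate (-0.65), after quantile normalization, with tumors of the same title number correlated or averaged, and without normal lung 4, normal lung 5 or tumor 2, and tumor 1 had 11708 normalized counts against at most 7244 in normal lung.

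Goblet cell and mucus genes were lower in 9 and higher in 1 of the 14 listed genes in the table, against 30.1% and 31.4% of all tested genes. Their median log2 fold change was -2.02. Muc5ac, the mucin of goblet cells, went from 62.7 ± 34.4 to 9.72 ± 8.14 normalized counts (log2 fold change -2.75, SE 0.65, limma adjusted p = 0.00239). Muc1, a membrane-bound mucin, went from 4367 ± 854 to 125 ± 102 (log2 fold change -5.51, adjusted p = 5.54e-07). Clca1, a secreted product of goblet cells, had 1331, 1345, 546, 1.41 and 1001 normalized counts across normal lungs 1 to 5 and at most 9.43 in tumors. The gene that rose was Galnt12, an enzyme that starts mucin-type sugar chains (1.04, adjusted p = 0.00967).

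Relatives of Bpifa1 and Bpifb1 were mostly too low to rank. Among the 12 found, 9 were tested, 3 were lower and 3 higher, shares close to the 30.1% and 31.4% over all tested genes. Bpifb5 went from 41.3 ± 9.75 to 3.69 ± 3.07 normalized counts (log2 fold change -3.54, limma adjusted p = 1.42e-04). Pltp, a phospholipid transfer protein of plasma and lung, went from 2779 ± 367 to 171 ± 174. The 3 that were higher, Bpi, Bpifb2 and Bpifb6, did not exceed 15.3 normalized counts in any tumor, and 0 relatives were higher in edgeR and 1 in DESeq2.

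Regulators of airway secretory genes were measured as well. Cebpa, a transcription factor that acts in airway and alveolar epithelium, went from 6959 ± 870.4 to 433 ± 616 normalized counts (log2 fold change -4.72, SE 0.53, limma adjusted p = 5.64e-06), with tumor 7 highest among tumors at 1822. Nkx2-1, the lung identity factor, ranged from 7307 to 9000.4 normalized counts among normal lungs and from 4566 to 14594 among tumors (0.45, SE 0.25, adjusted p = 0.133). Foxa1, a pioneer factor of endoderm, was higher in tumor (1.63, SE 0.36, adjusted p = 0.00147), as was Nfib (1.54, SE 0.21, adjusted p = 2.90e-05). Of the 12 regulators in the table, 8 were lower and 3 higher, against 30.1% and 31.4% of all tested genes. Elf3 and Sox2 were not analysed here.

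Likeness of pattern was measured as Pearson's r of log2(normalized count + 1) over the 12 samples, among 16508 genes outside the list with a mean log2 value of at least 4. The samples include both tissues, so r between genes that differ strongly between them, such as Scgb1a1, holds that difference. Bpifa1 was not called different between tissues. How much of each r comes from tissue was not measured. Most like Scgb1a1 were Ccdc121 (0.989), Slc6a14 (0.989), Ankfn1 (0.986), Sftpd (0.985) and Muc1 (0.984). Most like Bpifa1 were Limk2 (0.916), Oit1 (0.905), Aqp3 (0.877), Zzef1 (0.833) and Msln (0.808). Within the 10 genes, r was 0.936 to 0.967 among Scgb1a1, Scgb3a2, Cyp2f2 and Aldh1a1, and 0.956 between Bpifa1 and Reg3g. It was lowest between Aldh1a1 and Ltf, at 0.360.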

How the data were processed

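Per the submitters' processing notes, featureCounts, DESeq2 and the build GRCm39 were used, with no version or role given; the aligner, annotation release and use of strand are not given in the sources used here. What the authors deposited is a signal, read counts divided by a size factor per column: 100% of a column's values were whole multiples of its step (within about 0.01 of a read), so reads were recovered by division. For tumor 3 the step is close to 1 (0.991), and the column was kept out of the count tests although its values were whole multiples too. Symbols came from GENCODE M21 and named 29982 of 30399 identifiers. Groups come from the tissue label, and samples are numbered in order of listing. The smallest chi-square per degree of freedom among 25 same-group pairs was 18.4, so no library in these pairs is a copy of the other. Tumor 3 was left out of this check.

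The test took genes whose values averaged 1 or more, on log2(value + 1), a scale that understates changes of low genes, with limma 3.58.1 (R 4.3.3, trended eBayes, Benjamini-Hochberg over all tested genes). Alternatives changed the pseudocount (0.1), the filter, the normalization, the test (edgeR 4.0.16, DESeq2 1.42.0), the handling of spread and of title numbers, and the samples. The code was tested on simulated data. Exon lengths and overlaps come from GENCODE M21 (GRCm38). Genes named are the 10 members, up to 4 genes of highest mean and relatives of members in each list, and the 5 genes most like Scgb1a1 and Bpifa1; others are introduced as picked after their values were seen. The members and lists were chosen with earlier results of these data known.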

Additional observations from a re-analysis of the deposited data

Results flagged for a closer look

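Of 100 groups of values examined, 7 had an extreme sample beyond the 95% critical value of Dixon's test for a gap, and chance alone gives about 5.0. All values here are log2(normalized count + 1). None of the 10 secretory genes was among them.

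Clca1, a goblet cell product, was lowest in normal lung 4 at 1.27, against 9.10 to 10.39 in the other normal lungs, and highest among tumors in tumor 6 at 3.38, against 0 to 1.18. Fmo2, a flavin monooxygenase, was lowest in tumor 3 at 3.80, against 8.47 to 11.25 in the other tumors. Lcn2, an iron-chelator-binding protein of mucosa and neutrophils, was also lowest in tumor 3, at 3.69 against 7.01 to 9.42. Cebpa was highest in tumor 7 at 10.83, against 6.67 to 8.16, and Nkx2-1 was lowest in tumor 7 at 12.16, against 13.35 to 13.83. Bpifb9b was highest in normal lung 2 at 1.66, against 0 in the other normal lungs, which is under the floor of 3 reads.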

How the results depend on the processing

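The count of 7 genes lower in tumor was 4 once the Y-linked level entered the fit, 4 to 7 when each sample was left out in turn, and 5 to 7 under the other alternatives. No gene was called higher under any of them. Of the log2 fold changes of the 10 genes, 4 changed direction, Reg3g in edgeR (0.52) and DESeq2 (0.46) and Ltf in edgeR (0.75) and DESeq2 (0.71), none of which passed the threshold. Both count tests left out tumor 3, without which limma gave -0.82 for Reg3g and -0.16 for Ltf. Over all 7 tumors the mean normalized count of Reg3g was 243, against 211 in normal lung. For Ltf these means were 340 and 247. Fold changes in the opposite direction were not found elsewhere among the 10 genes or the named list genes that were called. Other settings lost 20 calls of the 10 genes, in Scgb3a1, Bpifb1 and Muc5b, and 17 of named list genes. The cause was not tested. Equal column totals moved the median log2 fold change of all genes from 0.04 to 0.23 and gave 6 genes lower. Between trachea-titled and lung-titled tumors 0 of the 10 genes were called under every alternative, including DESeq2, which called 172 genes higher and 128 lower over all genes. Where a trachea-titled tumor was left out, the lone one left was assumed to vary like the lung-titled tumors. No paired analysis was possible because sample numbers were given here by listing order and link no tumor to a normal lung. Low counts limit tumors 2 and 3 most, where 3 and 7 of the 10 genes had 3 reads or fewer.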

Other observations

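Genes of mucosal defence and retinoid handling, listed beside the secretory genes, were counted in the same way. Of 12 defence genes tested 7 were lower in tumor and 3 higher, against 30.1% and 31.4% of all tested genes. Lyz1, a lysozyme of airway and alveolar cells, went from 4790 ± 1723 (SD, n = 5) to 11.6 ± 12.2 normalized counts (SD, n = 7), and Pigr, the receptor that carries antibodies into airway fluid, from 1788 ± 679 to 109.8 ± 142. The 3 that were higher were Duox1, Duox2 and Duoxa1, which make or mature the hydrogen peroxide source of the airway surface and were named after their values were seen. Duox2 had 4.23 to 27.5 normalized counts in normal lung and 35.9 to 472 in tumors, so every tumor was above every normal lung.

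Of 14 genes of retinaldehyde and retinoic acid handling, 6 were lower and 3 higher, against the same shares over all genes. Aldh1a2 and Aldh1a3, which make retinoic acid as Aldh1a1 does, had means of 219.5 ± 58.0 and 75.5 ± 33.6 normalized counts in normal lung and 294 ± 437 and 103 ± 80.4 in tumors, and neither passed the threshold. The highest tumor for both was tumor 7, at 1239 and 263. The 3 that were higher, Crabp1, Crabp2 and Stra6, bind or import retinoids and were named after their values were seen. Crabp2 had 0 to 6.45 normalized counts in normal lung and 82.6 to 438 in tumors.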
